A study of Mus musculus with 14 samples.

Results

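Acsbg1, Clu, Slc1a3, Fgfr3 and Aldh1a1 are genes of astrocytes and radial glia, and they were examined in mouse pontine gliomas with and without deletion of Ezh2. They were chosen by gene symbol, and all 5 were found among the 3533 genes listed for the Ezh2 deletion experiment. The series holds RNA-seq of 14 mouse tumors from 2 experiments, of which 7 libraries belong to this comparison. The EZH2 LOF (loss of function) group held 4 tumors from Nestin-Tv-a; p53 f/f; Ezh2 f/f mice (replicates 13 to 16), and the EZH2 WT group held 3 tumors from Nestin-Tv-a; p53 f/f; Ezh2 wt mice (replicates 1 to 3), both labelled C57BL/6. Both groups received the same RCAS-PDGF-B and RCAS-Cre viruses through injected avian DF1 producer cells, so that p53 was floxed and exposed to Cre in the controls too. The viruses enter only cells that carry the Tv-a receptor, which the Nestin promoter drives in progenitors. The study described the removal of the floxed Ezh2 exons as incomplete, so a tumor can hold cells with intact Ezh2. In Ezh2-deleted tumors of its p53 knockdown model, it also reported that staining for H3K27me3, the histone mark made by EZH2, was almost lost. The groups differ in parents as well as in Ezh2, and these differences cannot be told apart. Ezh2 and Trp53 are not among the genes listed for this experiment and were not analysed here. None of the 5 genes is among the 294 genes listed for the gain-of-function experiment, so they were not analysed there.

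EZH2 is the catalytic subunit of Polycomb repressive complex PRC2, which methylates histone H3 and is known for silencing developmental genes, often at CpG-rich promoters. Radial glia are the stem cells of the embryonic brain that later produce astrocytes, and several of their genes stay on in mature astrocytes. Slc1a3 encodes the glutamate transporter GLAST, Fgfr3 a receptor tyrosine kinase for fibroblast growth factors, Acsbg1 a brain acyl-CoA synthetase that activates long-chain fatty acids, Clu the secreted chaperone clusterin, and Aldh1a1 a retinaldehyde dehydrogenase that makes retinoic acid.

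The 5 genes did not move together. Acsbg1, Clu, Slc1a3 and Aldh1a1 were lower in EZH2 LOF tumors, by between 1.505-fold and 8.87-fold, while Fgfr3 was 1.72-fold higher. All 5 passed an adjusted p of 0.05 (limma), beside 60.9% of the genes listed, with 31.2% called higher and 29.7% called lower. Among the 2549 genes with a mean of at least 100, 26.6% were called higher and 36.4% lower, and edgeR on the recovered reads called all 5 and 63.8% of the genes listed. The libraries of the groups did not overlap for any of the 5, beside 86.4% of the genes listed. The deposited list holds only genes that the authors had already called different between these groups, so a listed gene had to differ, and the count of 5 is a description. Values are normalized counts, that is, read counts divided by each library's size factor, and the replicates are tumors for which no source gives the animal, so a p-value reflects only how far these tumors differ among themselves. In bulk tumors, fewer cells of a type and less RNA per cell cannot be told apart.

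The libraries differed in depth. Reads in the listed genes numbered between 281847 and 1842891 in the EZH2 LOF libraries and between 2763245 and 3685186 in the EZH2 WT libraries, and 1 read was worth 4.58 normalized counts in the shallowest, EZH2 LOF replicate 13. Depth therefore moved with the group, and its part in the results was not tested. A second scaling of the libraries (TMM, the trimmed mean of M values) shifted none by more than 0.031 on the log2 scale. TMM assumes that most genes do not change, and only genes called different were available to it. The small shift is therefore no independent check of the scaling.

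The promoters of 4 of the 5 genes, all except Clu, were matched in RefSeq (GRCm38.p6), and the 200 bases before each transcription start are shown because Fgfr3, which was higher, and the 3 lower genes with a match differ in their CpG content. Capitals mark CpG dinucleotides, each sequence runs 5′ to 3′ on the strand of its gene, and the positions are chr5:33721524-33721723 (plus strand) for Fgfr3, chr15:8710808-8711007 (minus) for Slc1a3, chr9:54661886-54662085 (minus) for Acsbg1 and chr19:20601768-20601967 (plus) for Aldh1a1.
Fgfr3: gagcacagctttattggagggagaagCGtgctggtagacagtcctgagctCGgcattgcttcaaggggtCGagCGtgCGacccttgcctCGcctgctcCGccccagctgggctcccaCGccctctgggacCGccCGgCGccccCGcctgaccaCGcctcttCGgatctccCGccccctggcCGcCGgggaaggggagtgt
Slc1a3: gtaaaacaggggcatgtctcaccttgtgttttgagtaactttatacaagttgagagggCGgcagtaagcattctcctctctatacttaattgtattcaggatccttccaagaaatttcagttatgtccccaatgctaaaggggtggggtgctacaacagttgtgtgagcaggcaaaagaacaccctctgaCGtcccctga
Acsbg1: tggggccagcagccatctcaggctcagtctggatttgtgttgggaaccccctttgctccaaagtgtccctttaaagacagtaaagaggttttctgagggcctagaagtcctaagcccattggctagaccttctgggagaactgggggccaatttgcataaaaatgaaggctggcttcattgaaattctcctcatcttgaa
Aldh1a1: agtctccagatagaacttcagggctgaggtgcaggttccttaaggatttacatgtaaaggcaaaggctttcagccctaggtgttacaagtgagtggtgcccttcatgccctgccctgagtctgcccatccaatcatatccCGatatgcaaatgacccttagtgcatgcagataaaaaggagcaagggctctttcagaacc

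The Fgfr3 window held 17 CpG dinucleotides, more than 81.8% of 27025 mouse promoters. The windows of these lower genes held 2 for Slc1a3, 1 for Aldh1a1 and 0 for Acsbg1, against a median of 5 over all promoters and of 14 over the 2712 listed genes with a matched promoter. Among 24 genes of the astrocyte and progenitor lists described further on, the 3 called higher held between 4 and 31 (median 16) and the 11 called lower held between 1 and 22 (median 11), so the ranges overlapped. The RefSeq starts used for Nfix and Ptn in that count lie 959 and 1182 bases from the deposited gene starts. The letters TTGGC, the NFI half-site, searched on either strand, occurred 2 times in the Acsbg1 window and not in the other 3, and in 36.1% of all promoters. No binding or methylation was measured at these windows in the data used here. The CpG contrast was drawn with the directions known, and any link of CpG content to direction was not tested.

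**Figure D1:**
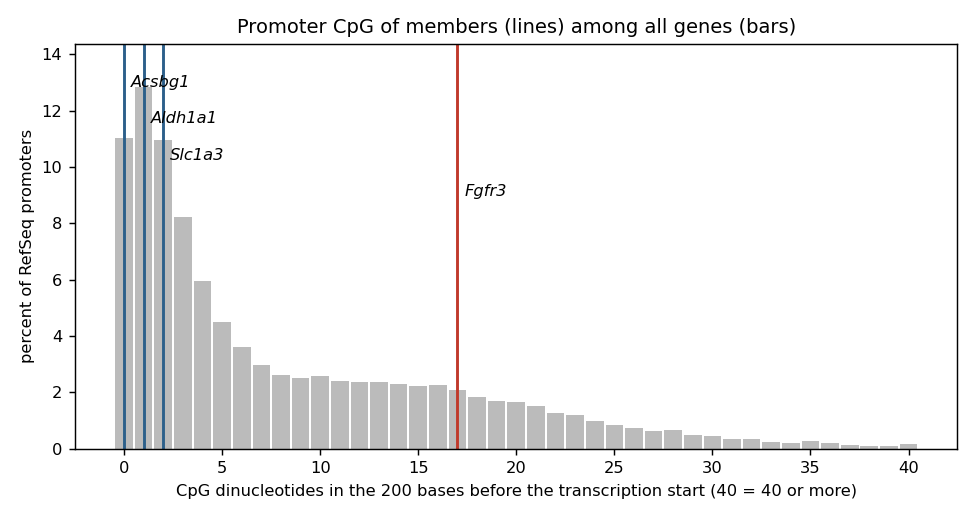
CpG dinucleotides in the 200 bases before the transcription start (x axis) and the percent of 27025 RefSeq promoters with that number (bars, y axis), with lines at the promoters of 4 of the genes. Fgfr3 lies at 17, and Acsbg1, Aldh1a1 and Slc1a3 lie at 0, 1 and 2.

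Fgfr3, the growth factor receptor, was the gene that was higher. Fgfr3 (ENSMUSG00000054252, mm10 chr5:33721724-33737068, plus strand) had 151, 141, 183 and 193 normalized counts in EZH2 LOF replicates 13 to 16, against 100.2, 96.3 and 95.2 in EZH2 WT replicates 1 to 3. The lowest EZH2 LOF library lay above the highest EZH2 WT library, and the control libraries were nearly level. The means were 167 ± 24.9 in EZH2 LOF and 97.3 ± 2.63 in EZH2 WT (SD, n = 4 and 3), a log2 difference of 0.76 (SE 0.17, 95% interval 0.39 to 1.13, adjusted p = 0.0164, limma). The call was lost without EZH2 LOF replicate 15 (adjusted p = 0.0505, limma), EZH2 LOF replicate 16 (0.0571) or EZH2 WT replicate 2 (0.0564). The exons of Fgfr3 overlap those of an unclassified gene on the opposite strand, G630022F23Rik, and the strand setting of the authors' counting is not given in the sources used here, so a share of its reads could belong to that gene.

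Slc1a3, the glutamate transporter, changed least. Slc1a3 (ENSMUSG00000005360, mm10 chr15:8634124-8710807, minus strand) had 1315, 1304, 1178 and 1259 normalized counts in EZH2 LOF tumors, against 1962, 2332 and 1414 in EZH2 WT tumors. The EZH2 LOF libraries lay close together, and EZH2 WT replicate 3 stood just above them. The means were 1264 ± 62.4 in EZH2 LOF and 1902 ± 462 in EZH2 WT (SD, n = 4 and 3), a log2 difference of -0.56 (SE 0.16, 95% interval -0.93 to -0.19, adjusted p = 0.0447, limma). This call was lost in 6 of 7 fits that left out 1 library, all except the one without EZH2 WT replicate 3, with an adjusted p (limma) of up to 0.167 without EZH2 WT replicate 2.

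Acsbg1, the acyl-CoA synthetase, had the smallest p of the 5. Acsbg1 (ENSMUSG00000032281, mm10 chr9:54604997-54661885, minus strand) had 385, 456, 358 and 407 normalized counts in EZH2 LOF tumors, against 628, 904 and 1010 in EZH2 WT tumors. Every EZH2 LOF library was below every EZH2 WT library, and EZH2 WT replicate 1, which was highest for Clu and Aldh1a1, was the lowest of the controls for Acsbg1. The means were 401 ± 41.7 in EZH2 LOF and 847 ± 197 in EZH2 WT (SD, n = 4 and 3), a log2 difference of -1.05 (SE 0.17, 95% interval -1.43 to -0.68, adjusted p = 0.00628, limma). The fits that left out 1 library kept this call in 7 of 7.

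Clu, the secreted chaperone, was 2.43-fold lower. Clu (ENSMUSG00000022037, mm10 chr14:65968483-65981548, plus strand) had 330, 471, 431 and 649 normalized counts in EZH2 LOF tumors, against 1711, 895 and 819 in EZH2 WT tumors. Each group had 1 high library, replicate 16 in EZH2 LOF and replicate 1 in EZH2 WT, and the groups did not overlap. The means were 470 ± 133 in EZH2 LOF and 1142 ± 495 in EZH2 WT (SD, n = 4 and 3), a log2 difference of -1.24 (SE 0.28, 95% interval -1.86 to -0.62, adjusted p = 0.0184, limma). With 1 library left out, the adjusted p (limma) for Clu lay between 0.0156 and 0.0494.

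Aldh1a1, the retinaldehyde dehydrogenase, was lower by the largest fold of the 5, and by more than 99.7% of the listed genes that were lower. Aldh1a1 (ENSMUSG00000053279, mm10 chr19:20601982-20643462, plus strand) had 32.1, 14.99, 19.1 and 83.5 normalized counts in EZH2 LOF tumors, against 653, 225 and 118 in EZH2 WT tumors. These rest on 7, 7, 26 and 70 reads in the EZH2 LOF libraries, against 1172, 594 and 228 reads in the EZH2 WT libraries. The highest EZH2 LOF library (replicate 16) stayed below the lowest EZH2 WT library (replicate 3), yet both groups were widely spread. The means were 37.4 ± 31.6 in EZH2 LOF and 332 ± 283 in EZH2 WT (SD, n = 4 and 3), with coefficients of variation of 84.3% in EZH2 LOF and 85.2% in EZH2 WT, and the log2 difference was -3.08 (SE 0.64, 95% interval -4.51 to -1.65, adjusted p = 0.0144, limma). With 1 library left out, the adjusted p (limma) for Aldh1a1 lay between 0.00952 and 0.0467. Of the 50-base words in Aldh1a1 exons, 3.06% also occur in Aldh1a7, a close relative, so few of its reads could be confused with that gene.

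**Figure D2:**
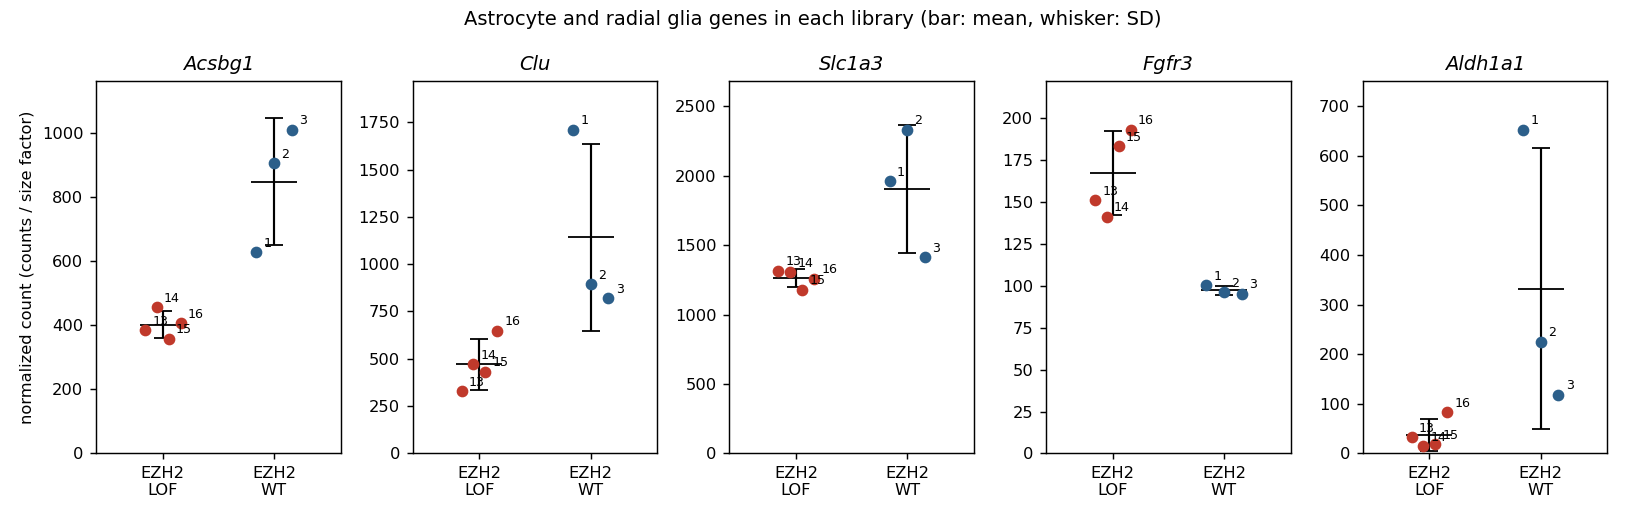
Normalized counts (y axes, from 0) of the 5 genes in each library, numbered by replicate, with EZH2 LOF (red, 4 libraries) left of EZH2 WT (blue, 3 libraries), bars at the means and whiskers of 1 SD. Fgfr3 is higher in all EZH2 LOF libraries, between 141 and 193 against 95.2 to 100.2 in EZH2 WT, and the other 4 genes are lower in all of them.

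Without EZH2 LOF replicates 13 and 14, the shallowest libraries, together, only Fgfr3 of the 5 passed the threshold (log2 difference 0.95, adjusted p = 0.0481, limma). The log2 differences of the other 4 kept their direction, at -1.12 for Acsbg1, -1.03 for Clu, -0.61 for Slc1a3 and -2.66 for Aldh1a1. The same 2 libraries left out brought the listed genes called higher to 182 and those called lower to 89.

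Ratios of genes within a library do not depend on its size factor. The genes that Fgfr3 is set against were themselves lower in EZH2 LOF. A higher ratio can therefore come from their fall as well as from Fgfr3. Fgfr3 stood at 31.0% to 51.2% of Acsbg1 in EZH2 LOF libraries and at 9.43% to 15.96% in EZH2 WT libraries. Against Slc1a3 it stood at 10.8% to 15.6% in EZH2 LOF and at 4.13% to 6.73% in EZH2 WT, and against Clu at 29.8% to 45.8% in EZH2 LOF and at 5.86% to 11.6% in EZH2 WT. Fgfr3 exceeded Aldh1a1 in all EZH2 LOF libraries, at 231% to 958% of it, and was below Aldh1a1 in all EZH2 WT libraries, at 15.4% to 80.7%. Clu and Acsbg1, both lower, kept overlapping ratios to each other, with Clu at 85.7% to 160% of Acsbg1 in EZH2 LOF and at 81.1% to 272% in EZH2 WT.

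Divided by exon length, the order of the mean levels differed between the groups. In EZH2 LOF tumors, Slc1a3 came first with 148 ± 7.31 normalized counts per kb of exon, then Clu with 137 ± 38.7 and Acsbg1 with 111 ± 11.6, and the libraries of Clu spanned those of its neighbours in this order. Fgfr3 followed with 23.4 ± 3.48 per kb and Aldh1a1 was last with 7.58 ± 6.39 per kb (SD, n = 4). In EZH2 WT tumors, the mean of Clu came first with 332 ± 144 per kb, then Acsbg1 with 235 ± 54.7 and Slc1a3 with 223 ± 54.1. These did not differ beyond their spread. Clu led only in EZH2 WT replicate 1, at 498 per kb. Slc1a3 led in replicate 2, at 273 against 261 for Clu, and Acsbg1 in replicate 3, at 280 against 238 for Clu. Aldh1a1 followed with 67.2 ± 57.3 per kb and Fgfr3 was last with 13.6 ± 0.367 per kb (SD, n = 3). Per kb, Fgfr3 lay above Aldh1a1 in every EZH2 LOF library and below it in every EZH2 WT library.

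**Figure D3:**
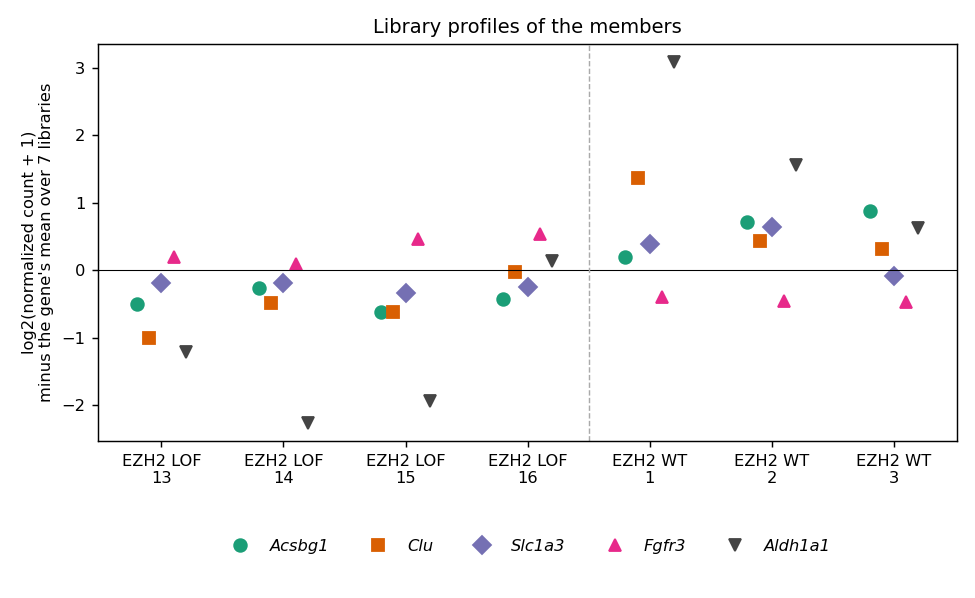
log2(normalized count + 1) of the 5 genes minus each gene's own mean over the 7 libraries (y axis), by library (x axis), with EZH2 LOF libraries left of the dashed line and EZH2 WT libraries right of it. Aldh1a1 spans the widest range, between -2.26 in EZH2 LOF replicate 14 and 3.09 in EZH2 WT replicate 1, and Fgfr3 alone lies above 0 in every EZH2 LOF library.

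The distance between the centred log2 profiles of a pair of genes (root mean square over 7 libraries) was smallest for Acsbg1 and Slc1a3, at 0.411, and largest for Fgfr3 and Aldh1a1, at 2.10. Among 3036 listed genes with a mean of at least 50, the profiles most like Acsbg1 were those of Pak1 (0.145), Il1rap and Rhoq. Those most like Clu were Abcd3 (0.209), Abhd3 and Npc1, those most like Slc1a3 were Pqbp1 (0.0981) and Eid1, and those most like Fgfr3 were Trp53bp2 (0.0928), Tra2a and Rbm4b. Aldh1a1 had no such close neighbour, with Ttc30b at 0.695, Fstl5 at 0.773 and Dcn, which encodes the matrix proteoglycan decorin, at 0.887.

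The same direction as the 4 lower genes was seen in other listed astrocyte genes. Of 40 further genes of this cell type, 18 are listed, of which 10 were lower, 0 higher and 8 did not pass the test, with a median log2 difference of -0.97 beside -0.33 over all listed genes. The shares over all listed genes were 29.7% lower and 31.2% higher, and over those with a mean of at least 100, 36.4% and 26.6%. The rest of the 40, among them Gfap, Aqp4, Aldh1l1 and Gja1, are not among the genes the authors called different. The counts therefore cover only part of the cell type's genes. Htra1, a secreted serine protease, averaged 273 ± 92.2 normalized counts in EZH2 LOF and 1254 ± 323 in EZH2 WT (log2 difference -2.21, adjusted p = 0.00168, limma), and its libraries did not overlap between the groups. Sparcl1, the secreted matrix protein hevin, averaged 1340 ± 231 in EZH2 LOF and 3261 ± 881 in EZH2 WT (log2 difference -1.26, adjusted p = 0.00695, limma). Mt3, a metallothionein, averaged 205 ± 25.4 in EZH2 LOF and 362 ± 36.1 in EZH2 WT, and Ndrg2 averaged 1048 ± 169 in EZH2 LOF and 2282 ± 767 in EZH2 WT. Sox9, a transcription factor of glial progenitors, was the 1 gene of this list with a log2 difference above 0, at 134 ± 79.7 in EZH2 LOF and 70.4 ± 6.27 in EZH2 WT, and it did not pass the test (adjusted p = 0.310, limma). The number of lower genes fell to 4 without EZH2 WT replicate 2 and to 2 without EZH2 LOF replicates 13 and 14.

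Of 30 genes of radial glia and neural progenitors, 12 are listed, and 3 were higher, 3 lower and 6 did not pass the test, with a median log2 difference of 0.07. These shares are near those of the whole list, 31.2% higher and 29.7% lower, so they are no result about progenitor genes. Notch2 (log2 difference 0.90, adjusted p = 0.0102, limma), Notch1 (0.52, 0.0461) and Nfix (0.73, 0.0184) were higher, of which the Notch genes encode receptors that keep progenitors undifferentiated and Nfix a transcription factor of gliogenesis. Pea15a (log2 difference -1.02, adjusted p = 0.00455, limma), Ptn (-0.75, 0.00931) and Cd9 (-0.68, 0.0409) were lower, of which Ptn encodes the growth factor pleiotrophin. Hes5, a Notch target, averaged 46.7 ± 2.59 in EZH2 LOF and 23.5 ± 12.6 in EZH2 WT and did not pass the test (adjusted p = 0.0519, limma). The number of higher genes was 1 without EZH2 WT replicate 2, and 1 without EZH2 LOF replicates 13 and 14.

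**Figure D4:**
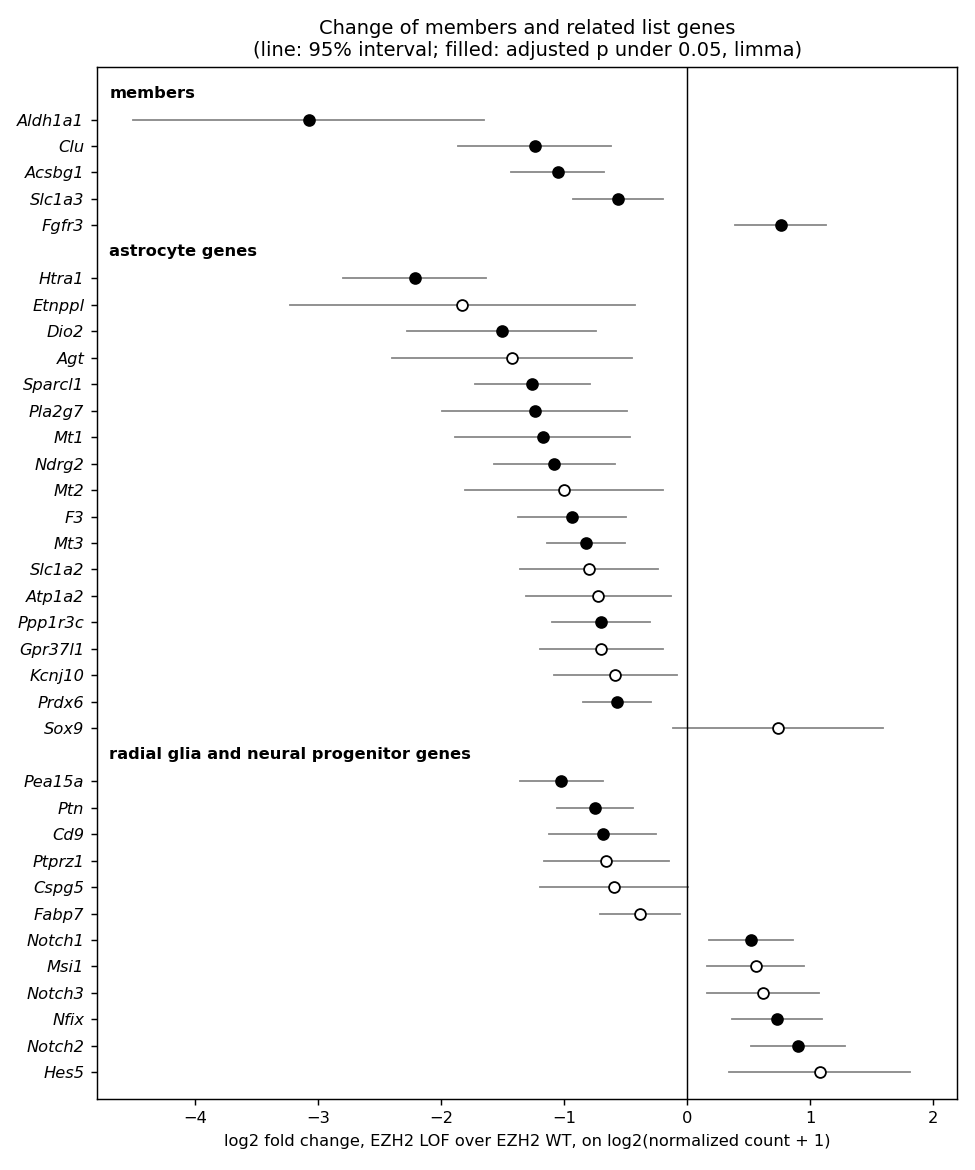
log2 difference of EZH2 LOF over EZH2 WT on the log2(normalized count + 1) scale (x axis) with 95% intervals, for the 5 genes and the listed astrocyte and progenitor genes, where filled points passed an adjusted p of 0.05. The astrocyte genes lie below 0 except Sox9, and the progenitor genes lie on both sides, 6 below and 6 above.

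Around Fgfr3, 29 genes of ligands, adaptors and feedback of fibroblast growth factor signalling were looked up, and 7 are listed, with 0 higher, 4 lower and 3 that did not pass the test, and a median log2 difference of -0.56. Of all listed genes, 29.7% were lower and 31.2% higher, so with 7 genes these counts are a description. Fgf2, a ligand, averaged 56.6 ± 19.6 normalized counts in EZH2 LOF and 187 ± 64.5 in EZH2 WT (log2 difference -1.74, adjusted p = 0.0125, limma). Spred1, an inhibitor of Ras signalling, had a log2 difference of -0.57, the target transcription factor Etv4 one of -0.50, and Flrt3, a membrane partner of the receptors, one of -0.59. Spry4, a feedback inhibitor, averaged 1437 ± 231 in EZH2 LOF and 1006 ± 311 in EZH2 WT, and its groups overlapped. With 1 library left out, the lower genes numbered 1 (without EZH2 LOF replicate 16) to 4, falling to 2 without EZH2 LOF replicate 14 or 15 or EZH2 WT replicate 1 or 2, and to 0 without EZH2 LOF replicates 13 and 14 together. The higher genes numbered 2 without EZH2 WT replicate 3.

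Around Aldh1a1, all 5 listed genes of 23 in the retinoid pathway passed the test, 3 lower and 2 higher. Of all listed genes, 60.9% passed, 31.2% higher and 29.7% lower, so with 5 genes these counts are a description. Aldh1a2, another retinaldehyde dehydrogenase, had 22.9, 6.42, 19.1 and 5.96 normalized counts in EZH2 LOF tumors, against 72.4, 67.5 and 76.1 in EZH2 WT tumors (log2 difference -2.54, adjusted p = 0.00928, limma). Aldh1a7, the close relative of Aldh1a1, went the other way, with 22.9, 12.8, 24.3 and 17.9 in EZH2 LOF tumors, against 6.68, 6.07 and 5.17 in EZH2 WT tumors (log2 difference 1.52, adjusted p = 0.0240, limma). Aldh1a1 therefore stood at 78.8% to 467% of Aldh1a7 in EZH2 LOF libraries and at 2280% to 9767% in EZH2 WT libraries. The values of Aldh1a2 and Aldh1a7 rest on few reads. In EZH2 LOF replicates 13 and 14, 1 read was worth 4.58 and 2.14 normalized counts, so the ratios there are loose. Stra6, the retinol uptake receptor, averaged 10.2 ± 5.59 in EZH2 LOF and 36.9 ± 5.72 in EZH2 WT (log2 difference -1.90, adjusted p = 0.0235, limma). Its EZH2 LOF libraries, between 3.58 and 17.1 normalized counts, also rest on few reads. Rarg, the retinoic acid receptor gamma, was higher, at 243 ± 49.0 in EZH2 LOF and 111 ± 16.6 in EZH2 WT (log2 difference 1.10, adjusted p = 0.00844, limma). The higher genes numbered 1 without EZH2 LOF replicate 15 or 16 or any 1 EZH2 WT replicate, and the lower genes numbered 2 without EZH2 WT replicate 1 or 2. Without EZH2 LOF replicates 13 and 14, and likewise with a filter at a mean of 50, 1 gene was higher and 1 lower.

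**Figure D5:**
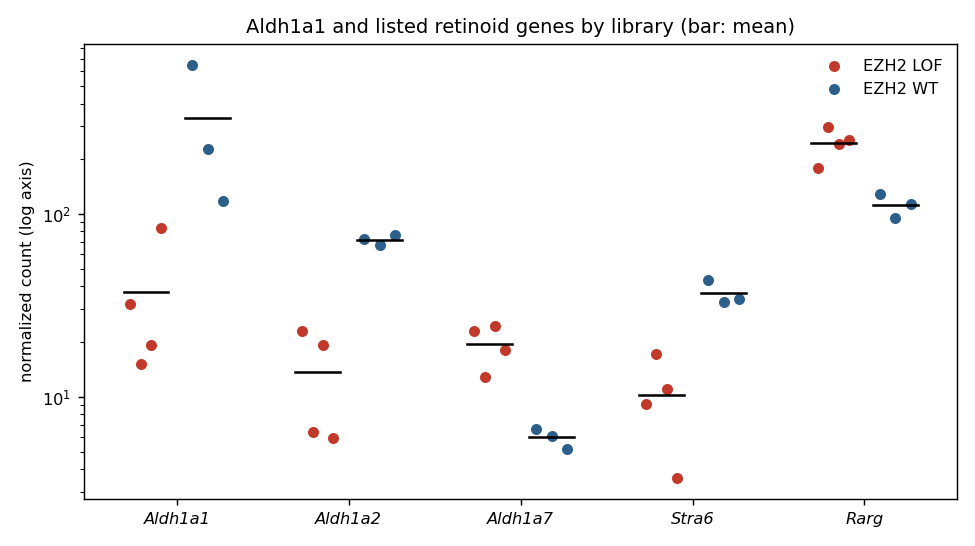
Normalized counts (log axis) of Aldh1a1 and 4 of the listed retinoid genes by library, with EZH2 LOF (red) left of EZH2 WT (blue) and bars at the means. Aldh1a1, Aldh1a2 and Stra6 are lower and Aldh1a7 and Rarg higher in all 4 EZH2 LOF libraries than in any EZH2 WT library.

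Of 16 further genes of glutamate and amino acid transport, the group of Slc1a3, 7 are listed, with 3 lower, 0 higher and 4 that did not pass the test. Of all listed genes, 29.7% were lower and 31.2% higher, and of those with a mean of at least 100, 36.4% and 26.6%. Beside these shares, the counts for the groups of Slc1a3, Acsbg1 and Clu are a description and no result about those groups. Slc1a4, a neutral amino acid transporter, had a log2 difference of -0.83, Glud1, the glutamate dehydrogenase, one of -0.50, and Slc1a1, a further glutamate transporter, one of -0.45. The lower genes numbered 1 without EZH2 LOF replicate 16 or EZH2 WT replicate 2, 2 without EZH2 LOF replicate 13 or 14 or EZH2 WT replicate 1, and 0 without EZH2 LOF replicates 13 and 14 together. Slc1a2, the main glutamate transporter of mature astrocytes and a gene of the astrocyte list, averaged 2554 ± 485 in EZH2 LOF and 4635 ± 1973 in EZH2 WT and did not pass the test (adjusted p = 0.0585, limma). Of 26 genes of fatty acid activation and oxidation, the group of Acsbg1, 8 are listed, with 4 lower, 1 higher and 3 that did not pass the test. The higher gene was Slc27a1, a fatty acid transport protein with acyl-CoA synthetase activity, at 195 ± 15.3 in EZH2 LOF and 79.0 ± 14.6 in EZH2 WT (log2 difference 1.31, adjusted p = 0.00272, limma), while Elovl5 (-0.59), Acadm (-0.68) and Elovl4 (-0.81) were lower. The lower genes of this group numbered 0 without EZH2 WT replicate 2, 1 without EZH2 LOF replicate 15 or 16, 2 without EZH2 LOF replicate 13, and 0 without EZH2 LOF replicates 13 and 14 together. Of 20 apolipoprotein and clusterin receptor genes around Clu, 4 are listed, and Apod, a lipid-carrying apolipoprotein, had 151, 167, 158 and 132 normalized counts in EZH2 LOF tumors, against 1474, 697 and 655 in EZH2 WT tumors (log2 difference -2.52, adjusted p = 0.00113, limma). Apod and Clu shared the high library among the controls, replicate 1, while Lrp8, a lipoprotein receptor, was higher (log2 difference 0.45, adjusted p = 0.0380, limma), a call lost without any 1 EZH2 LOF replicate and without EZH2 WT replicate 2.

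Markers of other cells of the tumor and its surroundings moved with the groups, and their part in the values of Aldh1a1, Clu and the other genes was not tested. Of all listed genes, 29.7% were lower and 31.2% higher, and most marker lists hold few listed genes. The marker counts are therefore a description. Of the fibroblast markers, 5 of 14 are listed and 4 were lower (Aldh1a2, described above with the retinoid genes, is 1 of them). The listed ones had summed normalized counts of 160 to 541 in EZH2 LOF and 644 to 1667 in EZH2 WT. This sum was highest in EZH2 WT replicate 1, where Clu and Aldh1a1 were also highest. The peak is not particular to fibroblast markers. The endothelial and mural, microglial, oligodendrocyte precursor, mature oligodendrocyte, astrocyte and progenitor sums were highest there too. The neuronal, cerebellar and ependymal sums were highest in EZH2 WT replicate 2. Of the endothelial and mural markers, 4 of 12 are listed and all 4 were lower, with sums of 124 to 345 in EZH2 LOF and 502 to 998 in EZH2 WT. Both listed microglial markers of 13, both listed cerebellar markers of 13 (Itpr1 and Fat2), 3 of 4 listed of 13 for mature oligodendrocytes and 2 of 4 listed of 11 for oligodendrocyte precursors were lower, while Nkx2-2 of the precursors was higher. The 1 listed neuronal marker of 13 (Tubb3) and the 1 listed ependymal and choroid plexus marker of 15 (Clic6) did not pass the test, and none of 10 lymphocyte markers is listed. Cartilage genes moved the other way, as Fgfr3 did, with 8 of 10 listed higher, 0 lower and sums of 9248 to 13156 in EZH2 LOF and 3596 to 6134 in EZH2 WT. Col2a1, the main cartilage collagen, averaged 713 ± 126 in EZH2 LOF and 47.9 ± 3.13 in EZH2 WT (log2 difference 3.85, adjusted p = 7.74e-06, limma), and Runx2, a skeletal transcription factor, had a log2 difference of 2.98. Fgfr3 is also expressed in cartilage, and whether its higher level comes from the same cells was not tested.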

How the data were processed

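Total RNA of each tumor was depleted of ribosomal RNA and sequenced as stranded, single-end reads of 50 bases. Reads were trimmed (Trim Galore), aligned to mm10 (STAR), counted per Ensembl gene (HTSeq) and compared by DESeq2 by the authors, with versions not given in the sources used here. Per library, a signal was deposited, the count divided by a size factor, only for genes the authors called different, together with columns of their own log2 fold changes, test score and p-values, which were not used except that the p-values gave the number of genes tested (13391). Values were whole multiples of 1 read (100% within 0.001 reads). The unit is thus not raw counts, so limma 3.58.1 (R 4.3.3) with a variance trend was fitted on log2(value + 1) over 3533 genes, two-sided, with Benjamini-Hochberg adjustment over 13391 genes, in which unlisted genes took the highest p-value. Fold changes on this scale understate the change of low genes. Alternatives used edgeR 4.0.16 and DESeq2 1.42.0 on recovered reads, other filters and libraries left out. The fit was tested on simulated data in which most genes did not change. The listed genes were all called different by the authors, so that test does not show how the fit performs on them. Deposited gene starts count from 0 and were raised by 1. Exon lengths came from GENCODE M21, which holds 3531 of the listed genes. Libraries were grouped by their labels. Replicate pairs differed by more than counting error, so each counted as 1 sample. Genes named are the 5 members, up to 4 called genes with the smallest p per related list and up to 2 in the opposite direction, up to 2 per cell type list, and 3 nearest profiles per member. Sox9, Hes5, Spry4, Slc1a2, Cd9, Tubb3 and Clic6 fall outside this rule and were chosen after their values were seen. Some genes that this rule names are not reported here. The members and lists were chosen with earlier results of these data known.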

Additional observations from a re-analysis of the deposited data

Results flagged for a closer look

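Of 60 genes checked in the EZH2 LOF group, 4 had 1 library far from the other 3, and chance gives about 1 in 20 such genes. In each of the 4 the distant library was EZH2 LOF replicate 13, the shallowest. Fgf2 had 27.5 normalized counts there, beside 62.0 to 68.5 in the other EZH2 LOF libraries, and Nkx2-2 had 257, beside 182 to 194. Rhoq, a neighbour of Acsbg1 by profile, had 399, beside 463 to 473. Abcd3, a neighbour of Clu, had 445, beside 539 to 552. None of the 5 astrocyte and radial glia genes had such a library.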

How the results depend on the processing

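The log2 differences of the 5 genes kept their direction in all 17 alternatives. Counts of genes were compared by size only, so the comparison could show no change of direction for them. Slc1a3 lost its call with a filter at a mean of 50 (log2 difference -0.56, adjusted p = 0.0532, limma) and with no variance trend (-0.56, 0.0805), while edgeR, DESeq2 and TMM scaling called all 5 genes. A filter at a mean of 10 removed no gene. Under the filter at a mean of 50, the removed genes took the highest p-value and the adjustment stayed over 13391 genes. That filter therefore left the number of tests as it was. With 1 library left out, the log2 difference lay between -0.76 and -0.40 for Slc1a3 and between 0.69 and 0.84 for Fgfr3, genes called higher numbered 458 to 1048 and lower 357 to 876, members called 3 to 5, lower astrocyte genes 4 to 9, and higher progenitor genes 1 to 3. Without EZH2 LOF replicates 13 and 14, the log2 differences were -1.12 (Acsbg1), -1.03 (Clu), -0.61 (Slc1a3) and -2.66 (Aldh1a1), none past the threshold, with 1 member called, 182 genes higher, 89 lower, 2 astrocyte genes lower and 1 progenitor gene higher; fewer samples were fitted. DESeq2 gave 17 lower astrocyte and 5 higher progenitor genes. Adjusted over the listed genes, 1694 genes were higher and 1790 lower, with 17 astrocyte genes lower, 6 progenitor genes higher and 5 lower; fewer genes enter that adjustment. The cause of the other differences was not tested. No paired analysis was possible because the groups share no replicate numbers. Of the 5 genes, depth limits Aldh1a1 most, with 7 reads in each of 2 EZH2 LOF libraries.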
